A study of Mus musculus with 18 samples.

Results

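Transcripts of 9 calcium handling genes of the sarcoplasmic reticulum (SR) and its junctions were followed in hearts that overexpressed either splice variant of phospholipase Cβ1. The genes were Atp2a2, Pln, Ryr2, Casq2, Slc8a1, Trdn, Asph, Jph2 and Hrc. They were taken by name from a table of HTSeq counts that lists 23457 genes and from a table of FPKM (read fragments scaled to the exon length of a gene and to the mapped total of a heart) that lists 23396. The genes were named by their role, at a time when earlier results of these data were known. All 9 were among the 12281 genes that passed a filter on low counts, and none was lost to it.

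The hearts came from 18 male C57BL/6 mice that were 17 weeks old, and each heart was a biological replicate. At 8 weeks of age, each mouse was given 1 of 3 vectors by tail vein, 6 mice per vector. These were rAAV6-PLCβ1b, rAAV6-PLCβ1a and rAAV6-blank, the last of which encodes no protein. Hearts were taken 9 weeks later. All 18 hearts had therefore received rAAV6, and uninjected hearts were not part of the comparison. The promoter was not given in the sources used here. The labels name both ventricles as the tissue, whereas the methods name the left ventricle.

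A cardiomyocyte contracts when calcium entering through L-type channels opens ryanodine receptors (Ryr2) in the junctional SR, and it relaxes when the SERCA2a pump (Atp2a2) returns calcium to the SR and the sodium-calcium exchanger (Slc8a1) carries it out of the cell. Phospholamban (Pln) restrains the pump until it is phosphorylated. Calsequestrin-2 (Casq2) and the histidine-rich calcium binding protein (Hrc) bind calcium within the SR, triadin (Trdn) and junctin (a product of Asph) tie calsequestrin to the release channel, and junctophilin-2 (Jph2) holds the SR to the T-tubule. Altered calcium cycling is well known in failing hearts. RNA sequencing measures the transcripts and not the phosphorylation of these proteins, which also sets their activity.

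The loci differ widely in size and in how much of the transcript is coding, which matters for reading the values. In the deposited mm10 gene models, Ryr2 spans chr13:11553103-12106945 on the minus strand, with 105 exons and 14898 coding bases. Slc8a1 (chr17:81373105-81738377, minus strand) has 18599 exonic bases, and its longest coding sequence is 2910 bases. Atp2a2 (chr5:122453513-122502225, minus strand) has 3 transcripts with 2 coding lengths, so the gene counts did not separate SERCA2a from the other variants. Asph (chr4:9449085-9669162, minus strand) has 10 transcripts with coding lengths from 621 to 2223 bases, of which junctin is only 1 product, so the counts of Asph are not a measure of junctin. Casq2 lies at chr3:102086455-102146512 on the plus strand, Trdn at chr10:33083483-33476709 on the plus strand, Jph2 at chr2:163336242-163397993 on the minus strand and Hrc at chr7:45335269-45338972 on the plus strand. Pln (chr10:53337686-53345999, plus strand) lies within Cep85l on the opposite strand, Trdn overlaps D830005E20Rik and Asph overlaps exons of Clvs1, also on opposite strands. Reads were counted by strand.

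Pln is the extreme case, since its reading frame takes 159 of 2480 exonic bases with the stop codon (6.41%), so most of the bases on which its reads were counted are untranslated. The reading frame, found in 6 GENCODE vM21 transcripts, is shown whole to make that proportion visible.
Pln coding sequence: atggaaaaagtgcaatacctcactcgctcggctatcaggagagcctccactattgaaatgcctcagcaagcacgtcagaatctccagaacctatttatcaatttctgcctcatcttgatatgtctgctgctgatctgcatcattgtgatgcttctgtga

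Promoters of Pln, Slc8a1 and Ryr2 are given because all pairs of these 3 genes passed adjustment when scaled counts were compared from heart to heart. Their adjusted permutation p by Pearson's r was 0.0401 to 0.0482, and the relations are described further on. None of these pairs passed with gene length and GC content removed, and Pln with Ryr2 had an r of 0.062 from FPKM. Atp2a2 and Asph, the pair with the strongest relation, had no promoter in the table used. Each is the 250 bases before the RefSeq transcription start (GRCm38.p6), 5′ to 3′ on the strand of the gene, with matches on either strand to 5 short motifs in capitals. The motifs were the TATA box (TATAAA), the GC box (GGGCGG), the E box (CANNTG), the GATA motif (AGATAA) and the MCAT motif (CATTCC). Positions are counted from the transcription start to the left end of a match.
Pln, chr10:53337436-53337685, plus strand: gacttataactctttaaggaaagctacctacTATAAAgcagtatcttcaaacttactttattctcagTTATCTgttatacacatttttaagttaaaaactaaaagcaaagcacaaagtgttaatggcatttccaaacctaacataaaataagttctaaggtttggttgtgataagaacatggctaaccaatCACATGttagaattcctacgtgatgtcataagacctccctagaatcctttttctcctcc
Slc8a1, chr17:81738388-81738637, minus strand: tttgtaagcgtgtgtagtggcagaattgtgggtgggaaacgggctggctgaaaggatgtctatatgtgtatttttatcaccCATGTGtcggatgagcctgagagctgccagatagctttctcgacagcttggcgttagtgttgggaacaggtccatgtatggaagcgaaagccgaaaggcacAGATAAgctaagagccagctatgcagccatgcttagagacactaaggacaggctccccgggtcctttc
Ryr2, chr13:12106946-12107195, minus strand: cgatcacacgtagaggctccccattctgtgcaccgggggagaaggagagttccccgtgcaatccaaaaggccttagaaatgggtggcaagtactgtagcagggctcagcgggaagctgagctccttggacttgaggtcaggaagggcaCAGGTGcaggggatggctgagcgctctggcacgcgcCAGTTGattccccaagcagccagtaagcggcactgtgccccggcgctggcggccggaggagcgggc

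The Pln window is 32.8% GC and holds a GATA match at -183, a TATA match at -219 and an E box at -59. The Slc8a1 window is 50.4% GC and holds a GATA match at -68 and an E box at -169. The Ryr2 window is 63.2% GC and holds 2 E boxes, at -102 and -66, with none of the other 4 motifs. Among 32851 promoter windows of the same length in the table, 9.99% held the GATA motif, 12.4% the TATA box and 66.2% an E box. These matches describe the sequence only. Promoters of 6 of the 9 genes were found in the table used.

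The total counts per heart ran from 13246339 to 24155465, of which 53.5 to 57.5% were of mt-Rnr2, a ribosomal RNA of mitochondria. Counts on nuclear genes were 3908354 to 7591558 per heart, and the 9 genes together held 129478 to 270927 of these, or 3.31 to 3.62%. Plcb1, the gene that both vectors carry, had 6.26 ± 0.541 CPM (counts scaled to the effective library size by TMM, mean ± SD, n = 6) with blank, 22.2 ± 3.87 with PLCβ1a and 46.9 ± 17.5 with PLCβ1b. Over blank it was higher by 2.90 on the log2 scale with PLCβ1b (edgeR FDR 8.24e-05) and by 1.82 with PLCβ1a (edgeR FDR 0.0299). Between the 2 PLC groups it was higher by 1.09 with PLCβ1b (edgeR quasi-likelihood test, unadjusted p = 0.00014, FDR 0.801). All 7 cardiomyocyte markers examined were expressed, with a summed level of 43116 to 52895 CPM per heart. The 5 skeletal muscle markers summed to at most 0.750 CPM in blank and PLCβ1b hearts and to 15.1 CPM in a single PLCβ1a heart.

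The pump and its inhibitor were among the most abundant nuclear transcripts of the heart. Atp2a2 had 1345 ± 106 FPKM (SD, 18 hearts), with a lowest heart of 1143 and a highest of 1516. Pln had 1339 ± 55.8 FPKM, from 1241 to 1420. Their ranges overlapped, and Atp2a2 was above Pln in 11 of 18 hearts, so these neighbours in the order could not be told apart. In blank hearts they ranked 20 and 21 of 23359 nuclear genes by mean FPKM.

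The luminal calcium binding proteins formed a lower pair. Casq2 had 179 ± 14.1 FPKM and Hrc 177 ± 10.01, and Casq2 was above Hrc in 9 of 18 hearts. Pln stood above Casq2 by 7.498-fold, with no overlap between their ranges. The release channel Ryr2 followed at 116 ± 9.42 FPKM, 1.52-fold below Hrc and below it in all 18 hearts. Asph had 50.4 ± 2.49 FPKM, again with no overlap with Ryr2. Jph2 (36.1 ± 3.07 FPKM) and Trdn (34.5 ± 1.67 FPKM) were close to each other, with Jph2 higher in 13 of 18 hearts and overlapping ranges.

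Slc8a1, the exchanger, was listed at 0 FPKM in 3 hearts that had 5030, 5917 and 7032 counts of it, namely PLCβ1a heart 14 and PLCβ1b hearts 16 and 17. Such zeros are not absence of expression, and Slc8a1 was therefore read from counts, which ran from 5030 to 9338 per heart. In the other 15 hearts its FPKM was 24.0 ± 1.29. Per exonic kilobase it had 20.4 ± 0.939 CPM, against 843 ± 35.7 for Atp2a2 and 1030 ± 40.0 for Pln.

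Length changed the order in several places. By CPM per exonic kilobase Pln lay above Atp2a2, whereas by FPKM the genes were level. Asph had 9.77 ± 0.569 CPM per exonic kilobase, the lowest of the 9, although its FPKM stood above those of Jph2 and Trdn. The union of its exons, 12294 bases, spans all 10 transcripts. A value of 1 FPKM of Asph corresponded to 2.39 CPM, compared with 14.6 for Ryr2, whose exons sum to 16813 bases. Comparisons of level between genes thus depend on the length used.

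**Figure D1:**
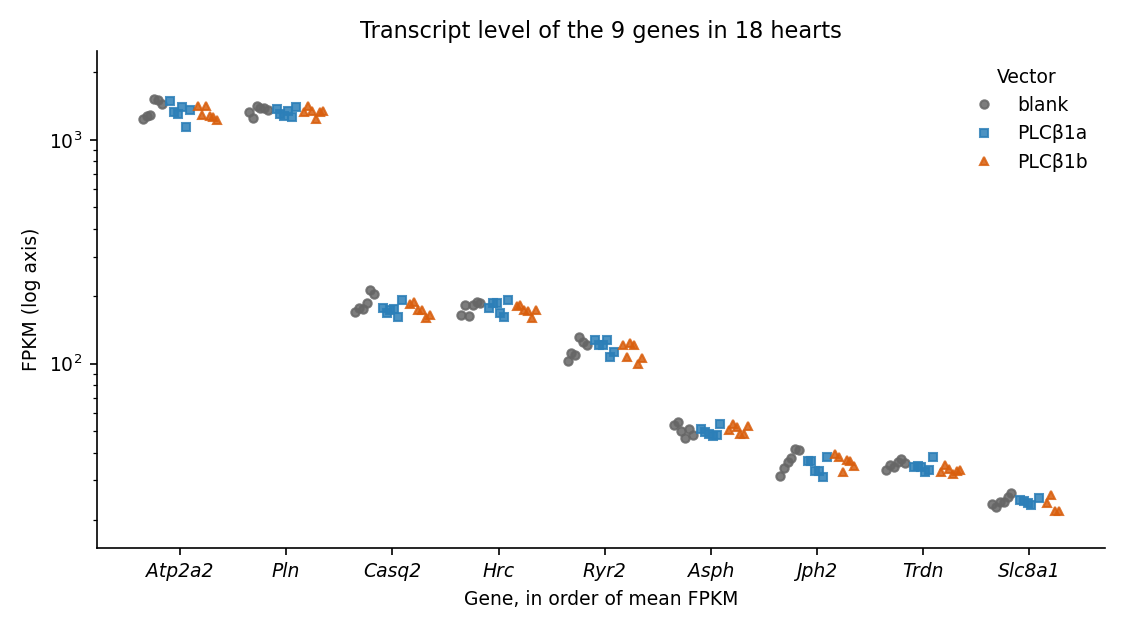
FPKM of each gene in each of 18 hearts on a log axis, with genes in order of their mean and 1 symbol per heart for each vector. The 3 hearts in which Slc8a1 was listed at 0 are left out, leaving 15. Atp2a2 and Pln lie together near 1340 FPKM, Casq2 and Hrc near 178, and the symbols of the 3 vectors overlap for every gene.

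In the plot of FPKM by gene the 3 vectors overlap within every gene, while the genes fall on several distinct levels. For the 8 genes with FPKM in every heart, the highest heart exceeded the lowest by 1.14-fold (Pln) to 1.33-fold (Jph2).

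Comparison of PLCβ1b with blank hearts addressed whether raised expression of this splice variant alters the transcripts of the calcium cycle. None of the 9 genes was called at a false discovery rate (FDR) below 0.1 by edgeR's quasi-likelihood test, where 0.0977% of the 12281 genes tested were called, 0.0733% higher and 0.0244% lower. Each of the 9 had a slightly lower estimate in PLCβ1b hearts, with a median log2 fold change of -0.026, beside a median of -0.00089 over all genes tested, of which 49.6% were higher. The direction was not the same under every setting, since Jph2 was higher with upper-quartile scaling and Asph with limma on FPKM. No gene had groups that did not overlap, as 0.480% of the genes tested did. The 95% intervals of the 9 fold changes together spanned 0.890-fold to 1.07-fold. Changes beyond these bounds lay outside the interval of every one of the genes.

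PLCβ1a, the other splice variant, served as the control protein and was also compared with blank. No member was called here either, beside 0.138% of the genes tested (0.0977% higher and 0.0407% lower). The estimates of 4 genes were higher and those of 5 lower, with a median log2 fold change of -0.012 (all genes -0.0018). With a spline on gene length in the fit 8 of 9 were lower, since Ryr2, Slc8a1 and Trdn turned. The 95% intervals together spanned 0.893-fold to 1.10-fold. Both comparisons used the same 6 blank hearts, so their values are not independent.

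Between PLCβ1b and PLCβ1a hearts no gene of the 9 was called, and none of the 12281 genes tested was (0%). edgeR's quasi-likelihood test gave an unadjusted p below 0.05 for 4.42% of all genes (543), 2.24% higher and 2.18% lower, and for 0 of the 9. DESeq2 called 1 gene of all those tested, which was Plcb1 (log2 fold change 1.08, DESeq2 FDR 0.00501). The exact test of edgeR called 2, among them Plcb1 (log2 fold change 1.08, exact test FDR 3.6e-06). Neither called any of the 9. The estimates of 3 of the 9 were higher and of 6 lower in PLCβ1b hearts, and the intervals spanned 0.893-fold to 1.12-fold.

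**Figure D2:**
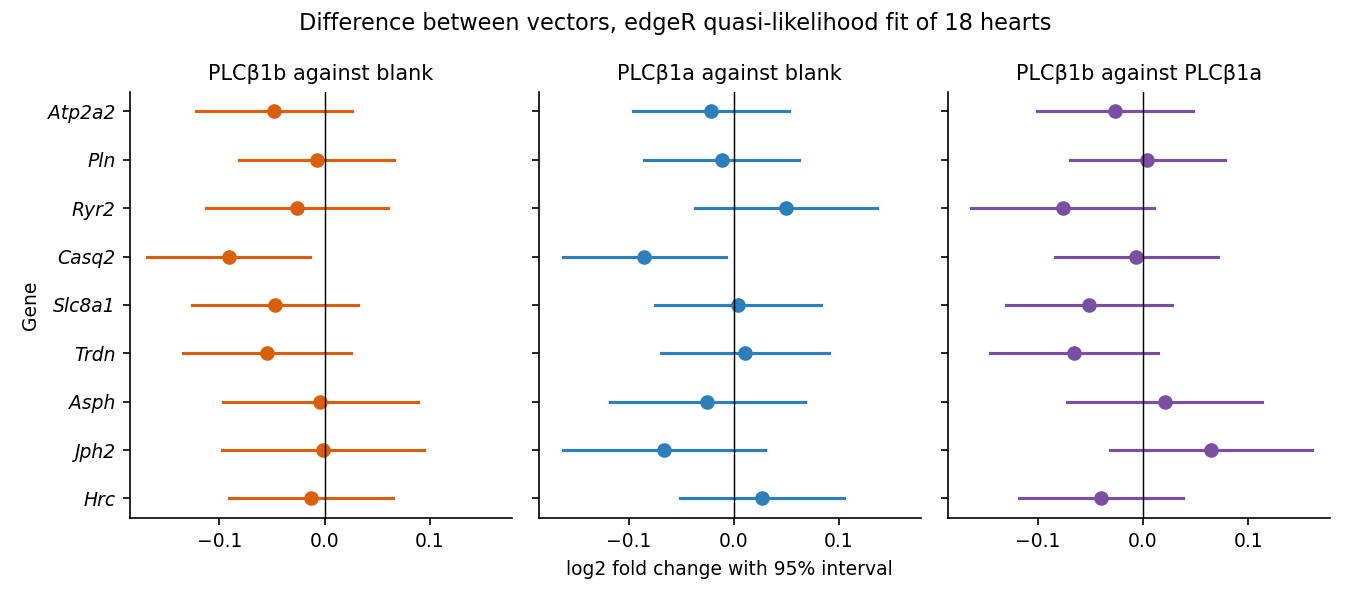
Log2 fold change (dot) with its 95% interval (line) for each gene in the 3 comparisons, from a single edgeR fit of 18 hearts. Only the intervals of Casq2 against blank leave out 0, at -0.17 to -0.014 for PLCβ1b and -0.16 to -0.0077 for PLCβ1a, and neither passed adjustment over all genes. All 9 dots lie left of 0 for PLCβ1b against blank, although Jph2 moves to the right with upper-quartile scaling and Asph with limma on FPKM.

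The plot of fold changes shows how narrow these intervals were. Standard errors of the 9 genes ran from 0.036 to 0.047 on the log2 scale against blank, compared with a median of 0.092 over all genes tested. In level the 9 genes lay between percentiles 97.4 (Asph) and 99.9 (Atp2a2) of the genes tested, so that median covers genes with far fewer counts. The biological coefficient of variation was 4.95% (Trdn) to 6.30% (Jph2), and its median over all genes was 6.62%.

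The pump gene Atp2a2 had a median of 4899 CPM with blank (lowest 4596, highest 5244), 4809 with PLCβ1a (4501 to 5171) and 4740 with PLCβ1b (4565 to 4939). PLCβ1b hearts covered the narrowest span of the 3 groups, and 5 of 6 were below the blank median, with 1 below all blank hearts. The log2 fold change, given throughout ± SE, was -0.048 ± 0.037 for PLCβ1b (edgeR FDR 0.819) and -0.021 ± 0.037 for PLCβ1a (FDR 0.914). The 95% interval for PLCβ1b was 0.919-fold to 1.02-fold.

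Pln had a median of 2508 CPM with blank (2478 to 2785), 2516 with PLCβ1a (2499 to 2635) and 2569 with PLCβ1b (2395 to 2690). The 6 PLCβ1a hearts lay close together and within the blank range, and 2 PLCβ1b hearts lay below all blank hearts. The log2 fold change was -0.0075 ± 0.036 for PLCβ1b (FDR 0.978) and -0.012 ± 0.036 for PLCβ1a (FDR 0.958). Its sign turned when single hearts were left out.

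The release channel gene Ryr2 had a median of 1693 CPM with blank (1550 to 1828), 1771 with PLCβ1a (1595 to 1815) and 1640 with PLCβ1b (1515 to 1829). The log2 fold change was -0.026 ± 0.043 for PLCβ1b (FDR 0.926) and 0.050 ± 0.043 for PLCβ1a (FDR 0.794). The 2 signs differed, though the value for PLCβ1a was -0.017 with a spline on gene length. Of the 9 genes Ryr2 had the largest difference between the PLC variants, -0.076 ± 0.043 (unadjusted p = 0.0837, edgeR FDR 1.0). In that comparison 5 of 6 PLCβ1b hearts were below the PLCβ1a median.

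Casq2, the main calcium buffer of the cardiac SR, was the gene with the largest estimate against blank. Its CPM had a median of 370 with blank (356 to 406), 355 with PLCβ1a (340 to 377) and 351 with PLCβ1b (338 to 377). Of the 6 hearts in each group, 4 PLCβ1b hearts and 3 PLCβ1a hearts lay below all blank hearts, and none lay above. The log2 fold change was -0.091 ± 0.038 for PLCβ1b (0.939-fold) and -0.085 ± 0.038 for PLCβ1a (0.943-fold). The unadjusted p of edgeR's quasi-likelihood test was 0.0219 and 0.0320, where 7.41% and 8.58% of all genes had one below 0.05. These shares divide into 3.94% higher and 3.47% lower for PLCβ1b, and 4.42% higher and 4.16% lower for PLCβ1a. After adjustment the FDR was 0.599 and 0.518, so neither difference was called. Between the PLC variants Casq2 differed by -0.0062 ± 0.038 (FDR 1.0). Blank hearts 34 and 36 held the highest Casq2 of the 18, at 406 and 397 CPM. Without blank heart 34 the log2 fold changes were -0.069 and -0.063.

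Trdn had a median of 146 CPM with blank (144 to 154), 150 with PLCβ1a (136 to 156) and 143 with PLCβ1b (130 to 148). All 6 PLCβ1b hearts were below the PLCβ1a median, and 3 lay below all blank hearts. The log2 fold change was -0.055 ± 0.039 against blank for PLCβ1b (FDR 0.810), 0.010 ± 0.039 for PLCβ1a (FDR 0.968) and -0.066 ± 0.039 between the variants (FDR 1.0).

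Asph varied most among blank hearts, with a median of 119 CPM (109 to 135), and less in PLCβ1a hearts (median 118, 115 to 126) and PLCβ1b hearts (median 122, 112 to 128). PLCβ1a and PLCβ1b hearts all fell within the range of blank hearts. By edgeR the log2 fold change was -0.0043 ± 0.046 for PLCβ1b (FDR 0.993) and -0.025 ± 0.046 for PLCβ1a (FDR 0.921). Hrc had a median of 344 CPM with blank (329 to 370), 356 with PLCβ1a (325 to 373) and 343 with PLCβ1b (328 to 356). All 6 PLCβ1b hearts were below the PLCβ1a median of Hrc, yet none was below every PLCβ1a heart. Between the variants Hrc differed by -0.040 ± 0.038 (edgeR quasi-likelihood test, unadjusted p = 0.304) and was not called. Its log2 fold change was -0.013 ± 0.038 for PLCβ1b (FDR 0.961) and 0.027 ± 0.038 for PLCβ1a (FDR 0.892).

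The exchanger gene Slc8a1 had a median of 382 CPM with blank (367 to 399), 384 with PLCβ1a (365 to 402) and 366 with PLCβ1b (338 to 410). Its PLCβ1b hearts had the widest span, with 3 below all blank hearts and 1 above. By edgeR the log2 fold change was -0.047 ± 0.039 for PLCβ1b (FDR 0.836), 0.0039 ± 0.039 for PLCβ1a (FDR 0.989) and -0.051 ± 0.039 between the variants (FDR 1.0). Jph2 had a median of 130 CPM with blank (114 to 140), 123 with PLCβ1a (115 to 131) and 133 with PLCβ1b (113 to 135). PLCβ1b heart 8, at 113 CPM, stood apart from the other 5 hearts of its group, which had 127 to 135 CPM. By edgeR the log2 fold change was -0.0014 ± 0.047 for PLCβ1b (FDR 0.999), -0.066 ± 0.047 for PLCβ1a (FDR 0.737) and 0.065 ± 0.047 between the variants (FDR 1.0). Without PLCβ1b heart 8 the value against blank was 0.035.

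**Figure D3:**
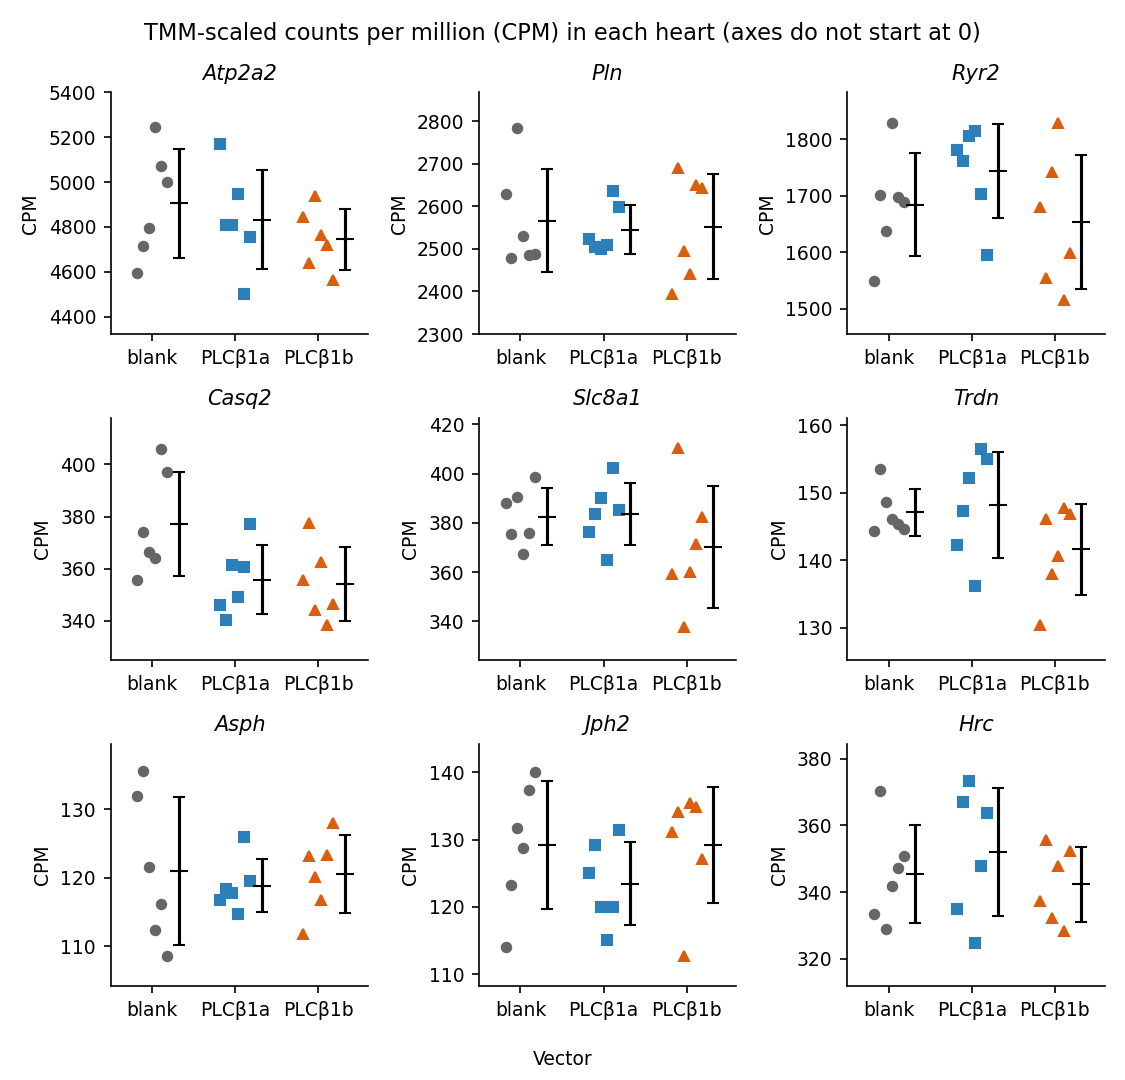
CPM after TMM scaling of each gene in each heart, by vector, with the mean and SD of the 6 hearts beside the symbols; the axes do not start at 0. The vectors overlap in all 9 panels. In the Casq2 panel 4 PLCβ1b and 3 PLCβ1a hearts lie below the lowest blank heart, and in the Jph2 panel PLCβ1b heart 8 lies below its group.

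In the plot of CPM by heart the ranges of the vectors overlap for each gene. In bulk tissue, fewer cardiomyocytes and less RNA per cardiomyocyte cannot be told apart. The summed cardiomyocyte markers had a median of 48002 CPM with blank (45677 to 52895), 51076 with PLCβ1a (48937 to 51976) and 47604 with PLCβ1b (43116 to 48630), and none of the 7 markers was called. Every PLCβ1b heart thus lay below every PLCβ1a heart in this sum, while both overlapped the blank hearts. Between the variants 0.179% of single genes tested had groups that did not overlap. Most of the sum was the titin gene Ttn, at 33500 ± 1236 CPM (SD) with blank, 34673 ± 1657 with PLCβ1a and 33244 ± 785 with PLCβ1b. Of the 7 markers, 2 had higher and 5 lower estimates in PLCβ1b than in PLCβ1a hearts (median log2 fold change -0.013).

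Markers of other cell types were measured in the same hearts. In PLCβ1b against blank, where the 9 genes had lower estimates, cardiomyocyte markers had 4 higher and 3 lower ones (median log2 fold change 0.0063). Higher estimates were found for 5 of 5 fibroblast (0.093), 4 of 4 macrophage and leukocyte (0.11), 3 of 3 smooth muscle (0.010) and 3 of 4 endothelial markers (0.024). The 4 atrial markers all had lower ones (-0.36). None of these markers was called. The lowest edgeR FDR were those of the endothelial cadherin gene Cdh5 (log2 fold change 0.14, FDR 0.417) and the collagen gene Col3a1 (log2 fold change 0.19, FDR 0.521). In PLCβ1a against blank, where 5 of the 9 genes had lower estimates, 4 of 5 fibroblast (0.043) and 4 of 4 macrophage and leukocyte markers (0.14) were higher. So were 5 of 7 cardiomyocyte, 2 of 3 smooth muscle, 2 of 4 endothelial and 3 of 4 atrial markers there. Of the erythrocyte markers only Alas2 was tested, and it was not called. Its log2 fold change was 0.63 ± 0.20 for PLCβ1a (edgeR FDR 0.364) and 0.22 ± 0.21 for PLCβ1b (FDR 0.858). The summed fibroblast markers ran from 354 to 415 CPM with blank, 370 to 451 with PLCβ1a and 367 to 457 with PLCβ1b, and the macrophage and leukocyte sum from 30.6 to 37.5, 31.6 to 41.4 and 29.8 to 43.9 CPM. The part of cell composition in the values of the 9 genes was not tested.

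The balance of pump and inhibitor, of buffer and channel, and of exchanger and pump was compared as a ratio of counts within each heart, which needs no scaling between hearts. Such a ratio can still vary with depth, since r with log2 total counts of the heart was 0.73 for Atp2a2 and -0.56 for Pln. The part of depth in the ratios was not tested. Pln counts were 0.525 ± 0.0426 of Atp2a2 counts with blank (SD, n = 6), 0.528 ± 0.0340 with PLCβ1a and 0.539 ± 0.0388 with PLCβ1b. The ratio did not differ beyond its spread in PLCβ1b hearts (log2 difference 0.039 ± 0.064 SE, exact two-sided permutation test, p = 0.535, adjusted p = 0.904 over 9 tests). Slc8a1 counts were 0.0782 ± 0.00524, 0.0796 ± 0.00600 and 0.0782 ± 0.00714 of Atp2a2 counts in the same order (exact permutation p = 0.970 for PLCβ1b against blank). With 6 hearts against 6, this test cannot give a p below 0.0022.

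The ratio of Casq2 to Ryr2 had the largest difference. It was 0.224 ± 0.0142 with blank, 0.205 ± 0.0171 with PLCβ1a and 0.215 ± 0.0169 with PLCβ1b. Of the 6 PLCβ1a hearts, 3 were below the lowest blank heart (0.199), and PLCβ1a heart 21 was the highest of its group at 0.236. The log2 difference for PLCβ1a against blank was -0.13 ± 0.061, with an exact permutation p of 0.0563 and an adjusted p of 0.506. Without PLCβ1a heart 21 the log2 difference was -0.18 (exact permutation p = 0.0130, unadjusted), without blank heart 33 it was -0.17 (exact permutation p = 0.0260, unadjusted), and from FPKM it was -0.14 (exact permutation p = 0.0498, unadjusted). With any other heart left out, the unadjusted exact permutation p was above that of all hearts. It ran from 0.0779 (without PLCβ1a heart 14) to 0.108 (without blank heart 34, log2 difference -0.115). For PLCβ1b against blank the log2 difference was -0.063 ± 0.060 (exact permutation p = 0.305, adjusted p = 0.904), and -0.098 to -0.039 with a heart left out.

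**Figure D4:**
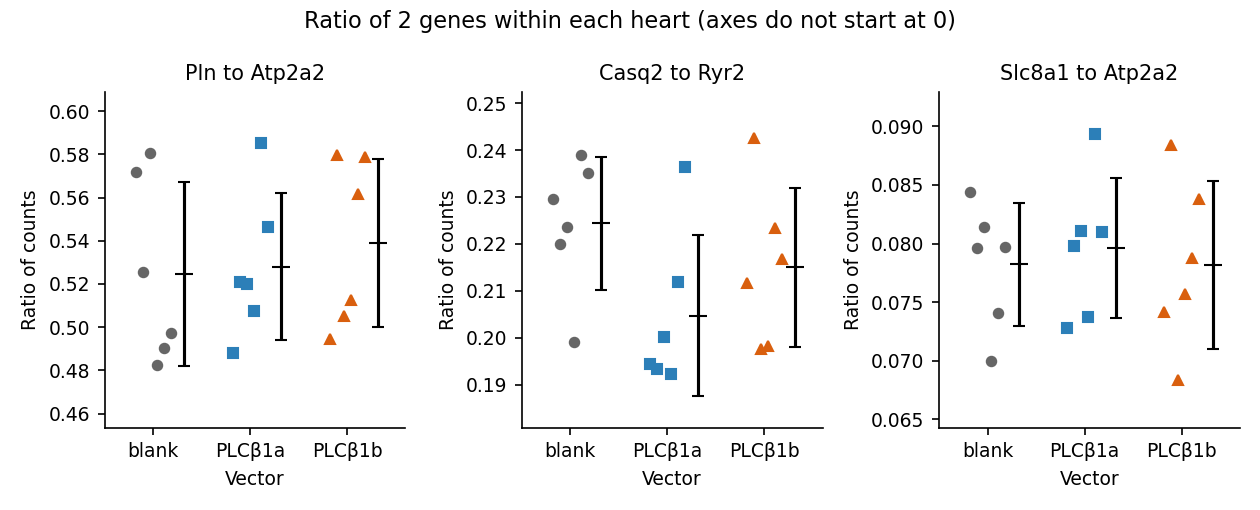
Ratio of the counts of 2 genes in each heart by vector, for Pln to Atp2a2, Casq2 to Ryr2 and Slc8a1 to Atp2a2, with the mean and SD of the 6 hearts beside the symbols; the axes do not start at 0. Casq2 to Ryr2 is lowest in PLCβ1a hearts, with a mean of 0.205 against 0.224 in blank hearts, and all groups overlap.

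The plot of ratios shows that the 3 balances varied by 1.17 to 1.29-fold between the hearts of a group. Differences between vectors were smaller than that.

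Whether the genes varied together, apart from vector, was examined from log2 CPM less the group mean over 18 hearts. The 36 pairs had Pearson's r from -0.77 to 0.61 with a median of 0.10, so the genes did not move as 1 block. By Pearson's r, 8 pairs passed an adjusted p below 0.05 (100000 permutations, 36 pairs). The permutations shuffled the values over all 18 hearts and made no allowance for the group means already removed. The permutation p-values of pairs, here and further on, are therefore somewhat too small. How many pairs pass with that allowance was not tested.

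The strongest relation was between Atp2a2 and Asph, in opposition. Its r was -0.77 (rho -0.82), with a permutation p of 0.0003 and 5e-05 and an adjusted p of 0.0108 and 0.0018. Without the 2 hearts farthest from the median of Atp2a2 it was -0.80, and within blank, PLCβ1a and PLCβ1b hearts it was -0.85, -0.85 and -0.70. It was also the only one of the 8 that passed whichever heart was left out. Over the same hearts, of all genes tested, Ehhadh had the highest r with Atp2a2 (0.89, from 42 to 184 counts per heart), and Phyh had the highest with Asph (0.93).

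In 7 other pairs the relation was weaker. Pln and Ryr2 were opposed (r = -0.68, rho = -0.65, permutation p = 0.0022 and 0.0050, adjusted p = 0.0401 and 0.0295), as were Ryr2 and Slc8a1 (r = -0.60, rho = -0.71, adjusted p = 0.0482 and 0.0145 by permutation). Atp2a2 was opposed to Slc8a1 (r = -0.59, rho = -0.72) and to Trdn (r = -0.59, rho = -0.70) and varied with Ryr2 (r = 0.61, rho = 0.67). Pln varied with Slc8a1 (r = 0.59, rho = 0.57), and Trdn with Asph (r = 0.58, rho = 0.63). Each of these 5 had an adjusted permutation p of 0.0482 by r, and by rho the adjusted permutation p ran from 0.0145 to 0.0559. By r all 7 lay close below 0.05, at 0.0401 to 0.0482. They may therefore not pass once the removed group means are allowed for. Without the 2 hearts farthest from the median of the first gene, r lay between -0.72 and -0.57 in the 4 opposed pairs and between 0.50 and 0.54 in the 3 others. Each of the 7 passed in only 2 to 10 of the 18 fits with a heart left out, and over all 36 pairs 1 to 11 passed.

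The relations were set beside technical values measured in the same hearts. The r with log2 total counts of the heart was 0.73 for Atp2a2, -0.56 for Pln and -0.54 for Asph. With total counts removed from the fit, 5 pairs passed, 3 of them among the 8, and Atp2a2 with Asph was at -0.65 (adjusted p = 0.0284, permutation). GC content of the longest transcript was 36.8% for Trdn, 38.6% for Pln and 40.2% for Slc8a1, and 48.2% for Atp2a2 and 49.6% for Ryr2. With gene length and GC content removed in each heart, 9 pairs passed, 2 of them among the 8, and Atp2a2 with Asph was at -0.73. With log2 FPKM in place of log2 CPM, which leaves out Slc8a1, 11 of 28 pairs passed, 1 of them among the 5 of the 8 that could be measured, and Atp2a2 with Asph fell to -0.20 (adjusted p = 0.515). The CPM that 1 FPKM stood for differed by 1.16 to 1.21-fold between hearts in all 8 genes with 18 values. The part of depth and base composition in these relations was not tested further.

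**Figure D5:**
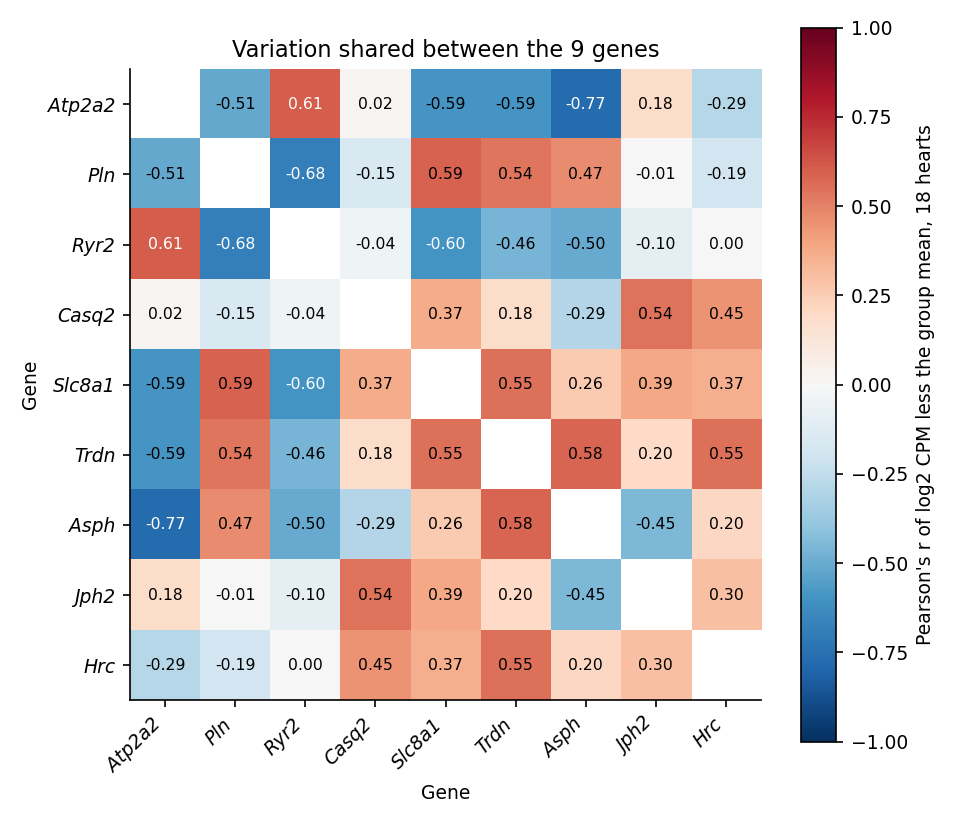
Pearson's r between the 9 genes, from log2 CPM less the group mean over 18 hearts, on a colour scale from -1 (blue) to 1 (red). The lowest value, -0.77, is between Atp2a2 and Asph, and the highest, 0.61, between Atp2a2 and Ryr2.

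From CPM, no pair with Casq2, Jph2 or Hrc passed. Their highest values were 0.55 for Trdn with Hrc (adjusted permutation p = 0.0616) and 0.54 for Casq2 with Jph2 (adjusted permutation p = 0.0623). Pairs of these genes did pass under the other treatments of the values. From FPKM, r was 0.78 for Casq2 with Jph2 (adjusted permutation p = 0.0018), 0.77 for Casq2 with Hrc (0.0022), 0.73 for Trdn with Hrc (0.0031) and 0.70 for Atp2a2 with Casq2 (0.0060). Any scale that all genes of a heart share enters every r from FPKM. The coefficient of variation of CPM per FPKM was 4.06% (Jph2) to 4.87% (Trdn), beside 3.88% (Pln) to 6.48% (Jph2) for CPM itself. Atp2a2 with Pln went from -0.51 by CPM to 0.48 by FPKM. The part of such a scale in these r was not tested. With gene length and GC content removed, r was 0.73 for Slc8a1 with Jph2 (adjusted permutation p = 0.0115), 0.70 for Trdn with Jph2 (0.0139), 0.67 for Jph2 with Hrc (0.0167) and 0.61 for Casq2 with Jph2 (0.0244). With total counts removed, Trdn with Hrc was at 0.68 (adjusted permutation p = 0.0284) and Atp2a2 with Hrc at -0.63 (0.0415).

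The genes whose pattern over the 18 hearts was most like that of a member are given by their r, as a description. For Slc8a1 they were Camk2d (0.86), a calmodulin-dependent kinase, and Cox6a2 (0.86). For Pln they were 2610002M06Rik (0.83) and Nbeal1 (0.83), and for Ryr2 Huwe1 (0.83) and Lrp1 (0.81). Those of Casq2 were Dcaf13 (0.82) and Glo1 (0.82), and those of Trdn were Fxr1 (0.81) and a gene whose name a spreadsheet had turned into a date (0.81). Jph2 was followed by Yy2 (0.90, from 16 to 52 counts per heart) and Ctbp1 (0.87). Hrc was followed by Vwa8 (0.82) and the cardiac troponin T gene Tnnt2 (0.82). The second for Atp2a2 was Cybb (0.84) and for Asph Tax1bp1 (0.89). The highest 5% of r over all genes began between 0.43 (Hrc) and 0.56 (Asph). The genes named for each member were picked as the highest among all genes tested, so they lie above these bounds by choice. Whether their r exceed the highest values that chance alone would give was not tested.

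Lists of 46 further genes of calcium handling held 44 in the count table, of which 36 were tested. In PLCβ1b against blank none was called, beside 0.0977% of all genes tested, 14 were higher and 22 lower, and the median log2 fold change was -0.025. In PLCβ1a against blank 1 was called, which was higher, beside 0.138% of all genes tested (0.0977% higher), with 16 higher and 20 lower estimates in all. In PLCβ1b against PLCβ1a none was called, as for all genes tested (0%).

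The called gene was Cacna1c, which encodes the pore of the L-type calcium channel that triggers Ryr2. It had 157 ± 4.70 CPM with blank (151 to 162), 182 ± 12.99 with PLCβ1a (164 to 197) and 178 ± 9.88 with PLCβ1b (165 to 192). All hearts of both PLC groups lay above all blank hearts, as 0.480% (PLCβ1b) and 0.594% (PLCβ1a) of genes tested did in either direction. By edgeR the log2 fold change was 0.22 ± 0.043 for PLCβ1a (FDR 0.0386) and 0.18 ± 0.043 for PLCβ1b (FDR 0.115), and the variants differed by -0.034 ± 0.043 (FDR 1.0). Without blank heart 34 or PLCβ1a heart 11 the edgeR FDR for PLCβ1a was 0.157 or 0.124, with a spline on gene length it was 0.130, and with limma on FPKM it was 0.389 and 0.432. For PLCβ1b it ran from 0.0334 to 0.636 over all settings. Its accessory subunit Cacnb2 had 35.9 ± 1.17 CPM in PLCβ1b hearts and 40.6 ± 2.56 in blank hearts, a log2 fold change of -0.18 ± 0.048 that was not called (FDR 0.196). Against PLCβ1a hearts (40.2 ± 2.81 CPM) the log2 fold change was -0.16 ± 0.048 (unadjusted p = 0.00212, edgeR FDR 0.971). Its PLCβ1b hearts (33.9 to 37.02 CPM) lay below every blank heart (37.6 to 44.0) and every PLCβ1a heart (37.11 to 43.7), beside 0.480% and 0.179% of genes tested whose groups did not overlap.

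Of the SR lumen and membrane list, all 6 tested had lower estimates in PLCβ1b than in blank hearts, with a median of -0.090, and 5 of 6 in PLCβ1a hearts, with none called. Tmem38a, a potassium channel of the SR, had 127 ± 4.84 CPM with blank, 119 ± 2.70 with PLCβ1a and 119 ± 3.57 with PLCβ1b. Its log2 fold change was -0.096 ± 0.036 for PLCβ1b (FDR 0.542) and -0.098 ± 0.036 for PLCβ1a (FDR 0.380). Casq1, the skeletal calsequestrin, was low throughout (31 to 108 counts per heart) and differed by -0.46 ± 0.19 between PLCβ1b and PLCβ1a hearts (FDR 1.0).

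Of the 10 tested genes in the list of release channel partners and other release channels none was called. Fkbp1a, which binds ryanodine receptors, differed by 0.14 ± 0.069 between the variants (FDR 1.0).

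Among 4 tested pump regulators and other pumps, sarcolipin (Sln) was the lowest in PLCβ1b hearts, at 1.01 ± 0.274 CPM, with 1.57 ± 0.130 in blank and 1.86 ± 1.21 in PLCβ1a hearts. It rested on 10 to 71 counts per heart and was not called (FDR 0.748 for PLCβ1b). Sln also marks atrial tissue, whose 4 markers summed to 37.4 to 54.7 CPM with blank, 25.0 to 63.7 with PLCβ1a and 29.9 to 47.4 with PLCβ1b. The part of atrial tissue in it was not tested. Atp2a3, another SERCA gene, was at 5.06 ± 0.385 CPM in PLCβ1a and 4.35 ± 0.444 in blank hearts (FDR 0.523).

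Of 5 tested genes of the dyad and T-tubule, Ank2 had the lowest p in PLCβ1b hearts (log2 fold change 0.093 ± 0.042, FDR 0.634), Cmya5 in PLCβ1a hearts (0.055 ± 0.038, FDR 0.729) and Cav3 between the variants (0.12 ± 0.065, FDR 1.0). Of 6 tested genes of calcium extrusion and mitochondrial transport, Slc24a6 had a log2 fold change of -0.29 ± 0.13 in PLCβ1b hearts (FDR 0.640), and Atp2b4, a plasma membrane calcium pump, one of 0.15 ± 0.069 in PLCβ1a hearts (FDR 0.539). None of these lists had a called gene other than Cacna1c.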

How the data were processed

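RNA from 18 hearts, 6 per vector, was depleted of ribosomal RNA and sequenced in pairs with the strand kept. Reads were aligned by the authors to the iGenomes mm10 transcriptome with TopHat (the submitters' notes list TopHat2 2.0.10) and counted on genes with HTSeq in union mode by strand. The authors deposited these counts as whole numbers, not normalized. The deposited FPKM were made by the authors, and Cufflinks 2.1 is listed without its role. The deposited annotation gave coordinates, written from 1.

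The 9 genes and the gene lists were chosen with earlier results of these data known. Counts were scaled by TMM, filtered with filterByExpr (minimum count 10, minimum total 15) and tested in a single model of the 3 groups with edgeR 4.0.16 (quasi-likelihood F test with a robust prior, R 4.3.3). Adjustment was by Benjamini-Hochberg over 12281 genes, with a call at an FDR below 0.1. No sample was left out. CPM on the log2 scale used a prior count of 2. Ratios were compared by exact two-sided permutation tests. Mouse numbers named the hearts and paired none. Named genes were the 9, the called gene and the gene with the lowest p of each list and comparison, Cacna1c, Plcb1, and the 2 genes with the highest r with each of the 9. A gene that this rule names is not reported here.

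The alternatives were DESeq2 1.42.0, edgeR's exact test, RLE and upper-quartile scaling, no filter, only the groups compared, mitochondrial genes (37) left out, a spline on gene length (4 degrees of freedom), limma 3.58.1 on log2(FPKM + 0.1) and log2(FPKM + 1) (mean FPKM at or above 3), an FDR below 0.05, FPKM for ratios and each heart left out. The fit without the robust prior and all alternatives for the relations were chosen after seeing the data. The fits and the search for genes with a like pattern were tested on simulated data. GC content came from GENCODE vM21, with 94.1% of the genes tested matched by name. Software was scipy 1.17.1, pandas 2.3.3, numpy 2.4.6, matplotlib 3.10.9 and Python 3.11.15.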

Additional observations from a re-analysis of the deposited data

Results flagged for a closer look

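Of 60 sets of 6 hearts (CPM, FPKM and ratios by vector), 2 held a heart whose gap to the nearest of the others, divided by the range, passed Dixon's 95% critical value. Chance alone flags about 1 in 20 such sets. Jph2 of PLCβ1b heart 8 was at 112.76 CPM, where the other 5 hearts had 127 to 135. Trdn of PLCβ1a heart 21 was at 38.2 FPKM, where the other 5 hearts had 32.7 to 34.7.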

How the results depend on the processing

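None of the 9 genes was called in any comparison under any setting, and the lowest FDR was 0.366 (Casq2 in PLCβ1a hearts, edgeR without PLCβ1a heart 21). Single hearts and settings did turn the sign of estimates near 0, and the cause was not tested. For PLCβ1a against blank, a spline on gene length gave -0.017 for Ryr2, -0.067 for Slc8a1 and -0.013 for Trdn, no filter gave -0.00065 for Slc8a1, and limma on log2 FPKM with 0.1 or 1 added gave -0.033 and -0.032 for Trdn. In these limma fits the median over all genes was itself -0.034 and -0.031, so Trdn lay at the level of genes in general. The same medians for PLCβ1b against blank were -0.030 and -0.027. For PLCβ1b against blank, limma on log2 FPKM with 0.1 or 1 added gave 0.012 for Asph with both, and upper-quartile scaling gave 0.0013 for Jph2. With each heart left out, the log2 fold change for PLCβ1b against blank ran from -0.022 to 0.017 for Pln, -0.034 to 0.032 for Asph, -0.034 to 0.035 for Jph2 and -0.027 to 0.0085 for Hrc. For PLCβ1a against blank it ran from -0.021 to 0.014 for Pln, -0.0091 to 0.018 for Slc8a1, -0.0043 to 0.034 for Trdn and -0.055 to 0.012 for Asph. Between the variants it ran from -0.011 to 0.022 for Pln and -0.025 to 0.011 for Casq2. The log2 difference of the Pln to Atp2a2 ratio ran from -0.020 to 0.041 for PLCβ1a against blank and from 0.016 (without blank heart 33) to 0.069 (without blank heart 32) for PLCβ1b against blank. That of Casq2 to Ryr2 ran from -0.18 to -0.12 for PLCβ1a against blank, where it was -0.14 from FPKM, and from -0.098 (without PLCβ1b heart 6) to -0.039 (without PLCβ1b heart 8) for PLCβ1b against blank. That of Slc8a1 to Atp2a2 ran from -0.0087 to 0.051 for PLCβ1a against blank, from -0.039 to 0.035 for PLCβ1b against blank and from -0.064 to 0.0098 between the variants.

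Over all genes, PLCβ1b against blank had 24 called genes with DESeq2, 22 with edgeR's exact test, 24 without a filter, 7 at an FDR below 0.05, 4 with limma at either pseudocount, and 2 to 18 with a heart left out, the 2 without blank heart 34 or PLCβ1b heart 17. PLCβ1a against blank had 45 with the exact test, 29 without a filter, 10 without the robust prior, 10 with only the 2 groups compared, 10 with the spline, 4 at an FDR below 0.05, 4 with limma at either pseudocount, and 3 to 19 with a heart left out, the 3 without blank heart 34 or PLCβ1a heart 11. Between the variants there were 1 with DESeq2, 2 with the exact test, 1 without the robust prior, 1 with limma at either pseudocount, and 0 to 1 with a heart left out. Of the relations between the 9 genes, 5 pairs passed with total counts removed and 1 to 11 with a heart left out. The permutations made no allowance for the group means removed, so these counts of pairs may be too high. From FPKM the r of Atp2a2 with Trdn was 0.41 and that of Pln with Ryr2 0.062, against negative values from CPM.

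No paired analysis was possible because the mouse numbers are not shared between groups. Depth limited the low genes most, such as Sln with 10 to 71 counts per heart. Levels and fold changes rest on gene counts that do not separate splice variants.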
